A study of Mus musculus with 4 samples.

Results

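The GIMAP genes encode a small family of GTP-binding proteins, the GTPases of immunity-associated proteins. All 8 mouse members measured here (Gimap1, Gimap3, Gimap4, Gimap5, Gimap6, Gimap7, Gimap8 and Gimap9) were found by their exact symbol in the platform's gene annotation, among 18193 genes with a probe set naming 1 gene. They had 11 of the 34945 such probe sets. Each gene is represented by its brightest probe set over the 4 arrays unless another is named.

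RNA was measured on Affymetrix arrays in T29, a mouse thymic lymphoma line described by the submitters as Ikaros-deficient. All 4 samples, controls included, carried MigR1-MLER, a retroviral construct for an inducible dominant-negative Mastermind, and no sample without it was analysed here. The groups were 2 samples kept with ethanol, the solvent, and 2 kept with 100 nM 4OHT (a tamoxifen metabolite and oestrogen receptor ligand), both for 24 h. Mastermind is the co-activator that Notch and its DNA-binding partner RBPJ need to switch on their target genes. The comparison asks which genes respond to 4OHT in cells that carry the construct. Effects of a blocked Mastermind and of 4OHT itself cannot be told apart here. Both groups come from 1 cell line. Whether replicates are separate cultures is not stated, and the p-values therefore reflect sample-to-sample spread that could be purely technical.

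GIMAP proteins share a GTP-binding domain of the AIG1 type, which is distantly related to that of the septins, and in mammals their genes lie side by side in 1 cluster. They are expressed chiefly in lymphocytes, where they are known for the survival of T cells: animals that lack Gimap5 lose peripheral T cells. Several members have been tied to BCL2 family proteins, and Gimap6 to the autophagy modifier GABARAPL2. In human T-cell leukaemia cells GIMAP5 has been linked to protection from apoptosis downstream of Notch.

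The sequences just upstream of 3 members are shown because 2 of these genes rose with 4OHT (Gimap1 and Gimap9) while the change of Gimap3 lay near 0. Each is the 250 bases before the RefSeq start on build GRCm38.p6, 5′ to 3′ on the gene's strand, and all 8 members matched a RefSeq promoter entry. Capitals mark matches within these bases, on either strand, to the motifs named in the next paragraph. Matches past the start, among them the ETS matches of Gimap1 and Gimap9, fall outside the bases printed here.
Gimap1, chr6:48738797-48739046, plus strand: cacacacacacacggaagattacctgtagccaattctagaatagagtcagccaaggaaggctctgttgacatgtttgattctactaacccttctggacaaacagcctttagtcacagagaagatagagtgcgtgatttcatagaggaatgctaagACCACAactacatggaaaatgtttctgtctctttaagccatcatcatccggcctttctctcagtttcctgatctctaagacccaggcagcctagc
Gimap9, chr6:48675885-48676134, plus strand: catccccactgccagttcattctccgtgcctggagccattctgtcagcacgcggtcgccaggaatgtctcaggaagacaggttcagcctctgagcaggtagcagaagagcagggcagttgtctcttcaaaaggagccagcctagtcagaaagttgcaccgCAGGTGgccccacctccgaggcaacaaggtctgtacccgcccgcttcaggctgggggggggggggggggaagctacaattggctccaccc
Gimap3, chr6:48770852-48771101, minus strand: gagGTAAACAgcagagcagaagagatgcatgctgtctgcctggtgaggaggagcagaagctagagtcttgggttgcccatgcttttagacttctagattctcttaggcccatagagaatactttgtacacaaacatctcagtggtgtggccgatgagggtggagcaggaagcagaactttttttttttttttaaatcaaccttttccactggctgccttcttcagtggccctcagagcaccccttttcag

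Short motifs were searched on both strands of 300-base windows, 250 bases before to 50 after each start, in the 9 windows of the GIMAP genes (Gimap8 has a pair) and in all 32851 mouse windows. The RBPJ motif GTGGGAA was found in 1 GIMAP window and in 6.38% of all windows. That window was Gimap3, with the match beginning at base 23, counting the start as the first base, within agaaactcatgtacatcaccctTTCCCACc, where the capitals are the reverse complement of the motif. The Ikaros core TGGGAA, which overlaps the RBPJ motif, had its 1 GIMAP match at the same place and occurred in 25.6% of all windows. The ETS motif GGAAGT was in 4 of the 9 windows (Gimap1, Gimap5, Gimap6 and Gimap9) against 23.8% of all windows, and the RUNX motif TGTGGT in 3 (Gimap1, Gimap4 and Gimap7) against 16.8%. The E protein motif CAGGTG was in the Gimap9 window and in 20.2% of all windows, and the FOXO motif GTAAACA in the Gimap3 window and in 3.65% of all windows. These matches describe letters in short windows and are not evidence of binding.

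With 4OHT, Gimap1 and Gimap9 rose and no GIMAP gene fell. Gimap1 was 1.63-fold and Gimap9 1.47-fold higher. Gimap6 was 1.43-fold higher without passing the test. In 6 of the 8 genes both 4OHT arrays lay above both ethanol arrays, as in 20.6% of all 18193 genes. Of these, Gimap5, Gimap7 and Gimap8 had signals too low for the main test. The remaining pair, Gimap3 and Gimap4, had changes near 0.

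**Figure D1:**
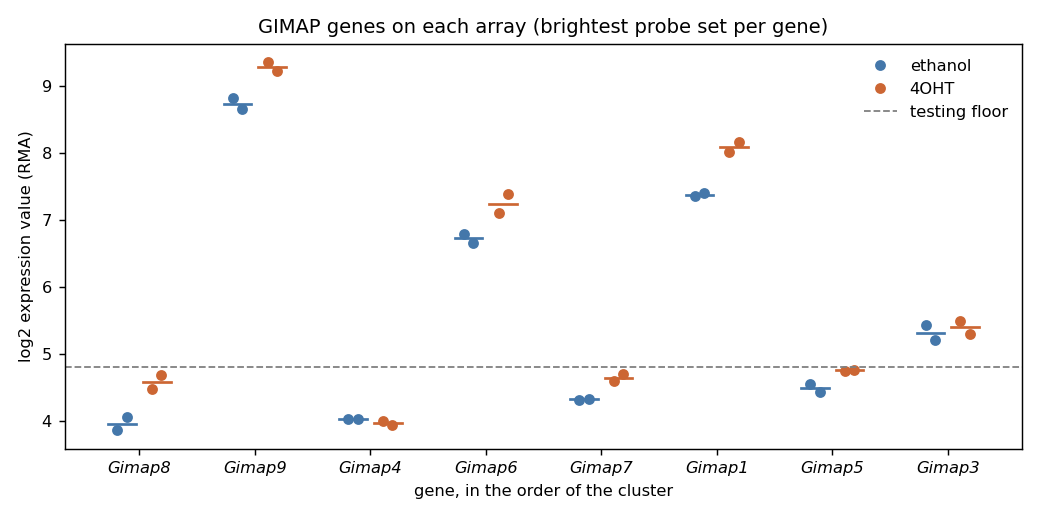
Log2 expression values (RMA) of the 8 GIMAP genes on each of the 4 arrays, with points for single arrays, bars for the mean of 2 arrays and a dashed line at the testing floor of 4.81. In Gimap1, Gimap5, Gimap6, Gimap7, Gimap8 and Gimap9 both 4OHT points lie above both ethanol points, and 4 genes lie under the floor. Heights of different genes come from different probes and are not comparable.

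The values are log2 expression values, and a gene whose mean over the 4 arrays was under 4.81, the 40th percentile of probe sets naming 1 gene, was not tested in the main fit. Of the 8 GIMAP genes, 4 were above this floor (Gimap1, Gimap3, Gimap6 and Gimap9) and 4 below it (Gimap4, Gimap5, Gimap7 and Gimap8). Of the 4 tested members 2 were called higher and 0 lower by limma at an adjusted p under 0.05, and before adjustment 3 were higher and 0 lower at p under 0.05. Over all 11581 genes tested, 3.9% were called higher and 3.57% lower. Before adjustment 12.3% (1426 genes) were higher, and 1532 genes were lower. Neither member kept its call when any 1 of the 4 arrays was left out, in fits with 1 residual degree of freedom that lowered the count of higher genes overall from 452 to between 9 and 125.

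Gimap1 encodes a Golgi-located GTPase that mature B and T cells need. It was at 7.36 and 7.40 on the ethanol arrays and at 8.02 and 8.16 on the 4OHT arrays. Both 4OHT arrays were high, and the gap between groups was wider than the spread within either. The mean rose from 7.38 ± 0.03 to 8.09 ± 0.10 (log2 value ± SD, n = 2 each), a log2 change of 0.71 ± 0.09 (SE) with a 95% confidence interval of 0.47 to 0.94 and a limma adjusted p of 0.0213. Without 1 array the change stayed between 0.64 and 0.78, with adjusted p from 0.0699 to 0.0919.

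Gimap9 is a member whose function in mouse is little described. Its values were 8.82 and 8.65 with ethanol and 9.35 and 9.23 with 4OHT. The groups did not overlap, which held for 56.9% of all tested genes in either direction. The mean rose from 8.73 ± 0.12 to 9.29 ± 0.09 (SD, n = 2 each), a log2 change of 0.56 ± 0.10 (SE; interval 0.30 to 0.81; adjusted p = 0.0374). Without 1 array it lay between 0.47 and 0.64, with adjusted p from 0.0942 to 0.173. In the fit over all 20967 probe sets above the floor, which adjusts over more tests, Gimap1 passed (adjusted p = 0.0344) and Gimap9 did not (adjusted p = 0.0581); there 2.43% of probe sets were called higher.

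Gimap6 encodes the member that binds GABARAPL2. Its brighter probe set read 6.80 and 6.65 under ethanol and 7.11 and 7.38 under 4OHT. The groups did not overlap, as in 56.9% of all tested genes. The 4OHT arrays, however, differed from each other by about as much as the lower of them differed from the ethanol arrays. The log2 change was 0.52 ± 0.12 (SE; interval 0.21 to 0.83) and did not pass (adjusted p = 0.069). Its other probe set, at 3.14 to 3.35 on all arrays, lay far under the floor and had a change of -0.08.

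Gimap3 encodes a close relative of Gimap5 that sits in intracellular membranes. It was at 5.44 and 5.21 with ethanol and at 5.50 and 5.30 with 4OHT, so the groups overlapped. In both groups replicate 1 was the higher. The log2 change was 0.08 ± 0.12 (SE; interval -0.23 to 0.38; adjusted p = 0.736), and its sign was not stable: it ran from -0.04 to 0.19 when 1 array was left out.

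The other 4 members lay under the floor, where folds can be understated and a steady value does not show that a gene is silent. With no filter, all 18193 genes were tested, and 3 of the 8 GIMAP genes were called higher and 0 lower (before adjustment, at p under 0.05, 6 higher and 0 lower). Over all genes in that fit 2.23% were called higher and 1.89% lower. Before adjustment 8.62% (1568 genes) were higher, and 1919 genes were lower. The third call was Gimap8, which encodes the longest GIMAP protein, with several GTP-binding domains. It had values of 3.87 and 4.06 under ethanol against 4.49 and 4.69 under 4OHT, a log2 change of 0.63 ± 0.12 (SE; adjusted p = 0.0437). All 4 values were under the floor, and the call was lost without any 1 array (adjusted p from 0.088 to 0.172) and in the fit over all 34945 probe sets with no filter (adjusted p = 0.0615).

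Gimap7 encodes a GTPase activated by pairing with another GIMAP molecule. Ethanol arrays gave 4.32 and 4.34, and 4OHT arrays gave 4.60 and 4.70. Its log2 change was 0.32 ± 0.10 (SE; interval 0.09 to 0.55; no-filter adjusted p = 0.139). Gimap5, the survival GTPase, had 4.56 and 4.45 on the ethanol arrays against 4.75 and 4.77 on the 4OHT arrays, a change of 0.26 ± 0.10 (SE; interval 0.03 to 0.49; adjusted p = 0.216). Both genes had groups that did not overlap, as did 50.1% of all 18193 genes in either direction, and neither passed. Gimap4, which has been linked to the pace of T-cell death, had 4.03 on both ethanol arrays against 4.01 and 3.95 on the 4OHT arrays (change -0.05; interval -0.28 to 0.17; adjusted p = 0.821). On this probe set both 4OHT values lay below both ethanol values, so the groups did not overlap here either. The signals of Gimap4 on both of its probe sets lay well under the floor.

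**Figure D2:**
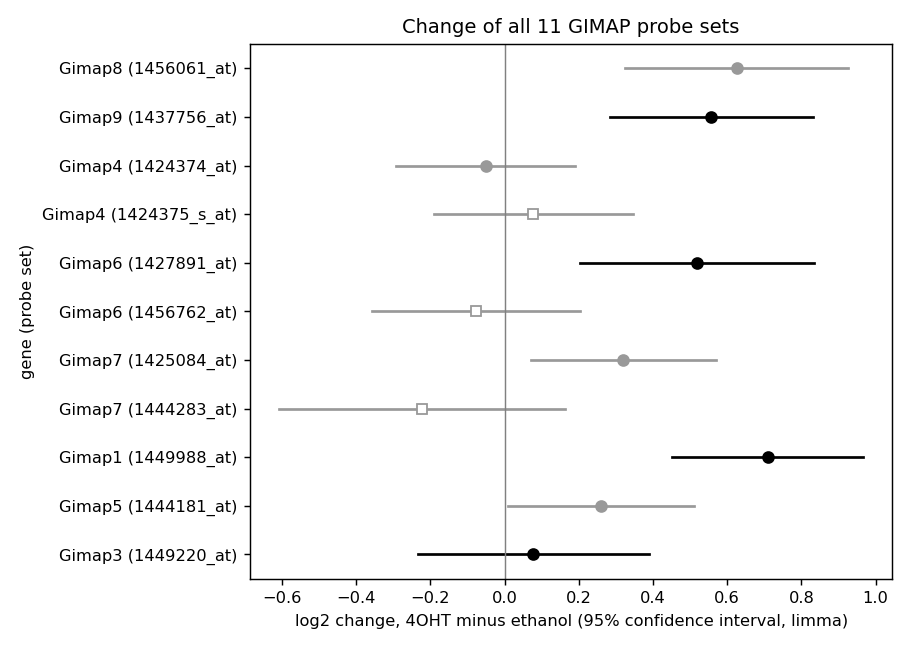
Log2 change, 4OHT minus ethanol, of all 11 GIMAP probe sets with 95% confidence intervals from limma with no filter; black marks probe sets above the testing floor, grey those below, circles the brightest probe set of a gene and open squares second probe sets. The intervals of Gimap1, Gimap5, Gimap6, Gimap7, Gimap8 and Gimap9 lie above 0 for the brightest probe set, and those of the 3 second probe sets span 0.

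Gimap4, Gimap6 and Gimap7 each had a second probe set. These 3 lay between 3.14 and 3.95 on all arrays and had changes of 0.08, -0.08 and -0.22, with intervals that included 0. In each of these genes the second probe set differed in sign from the brighter one. Averaging a gene's probe sets lowered the change of Gimap6 to 0.22 (adjusted p = 0.266) and that of Gimap7, with no filter, to 0.049 (adjusted p = 0.839). The deposited files do not show which transcripts each probe set reads, and signal from a similar family member was not tested.

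Across the family the median log2 change was 0.42 over all 8 genes, beside -0.03 over all 18193 genes. Over the 4 tested members it was 0.54, beside -0.01 over all tested genes. The 6 of 8 genes with both 4OHT arrays above both ethanol arrays compare with 20.6% of all genes in the no-filter set. Whether the members' changes differ from one another was not tested; the intervals of Gimap1 (0.47 to 0.94) and Gimap3 (-0.23 to 0.38) do not overlap.

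**Figure D3:**
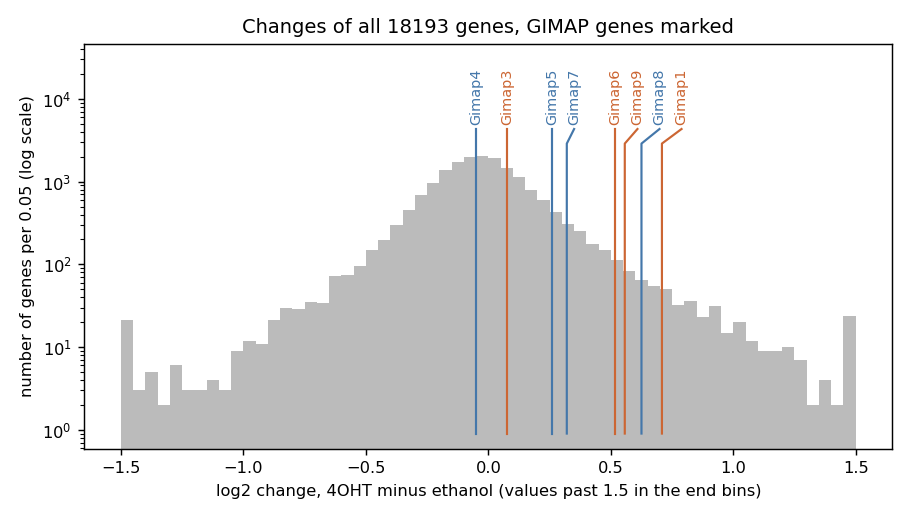
Histogram of the log2 change, 4OHT minus ethanol, of all 18193 genes (log count axis, bins of 0.05), with the 8 GIMAP genes as lines, orange for tested genes and blue for those under the floor. Gimap4 and Gimap3 lie in the centre of the distribution and the other 6 to the right of it, from 0.26 for Gimap5 to 0.71 for Gimap1.

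In the RefSeq gene order the cluster runs Gimap8, Gimap9, Gimap4, Gimap6, Gimap7, Gimap1, Gimap5, Gimap3. The members that rose were not confined to 1 end: Gimap9 is the second and Gimap1 the sixth. Of the 6 named genes on either side, 10 of 12 had a probe set, 6 were tested, and 2 were called higher and 0 lower (before adjustment 2 higher, 1 lower). The 2 were the next named genes beyond Gimap3, Tmem176b and Tmem176a, a pair that encodes related membrane proteins of immune cells.

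Tmem176b had values of 10.10 and 10.07 under ethanol against 10.99 on both 4OHT arrays, a log2 change of 0.91 ± 0.08 (SE; adjusted p = 0.0107). Tmem176a had values of 8.87 and 8.86 under ethanol against 9.91 and 9.66 under 4OHT, a change of 0.92 ± 0.11 (adjusted p = 0.0172). The other probe sets of Tmem176a had changes of 0.82 and 1.07. In both genes the 2 groups lay far apart. Tmem176b kept its call without ethanol replicate 1 and without ethanol replicate 2 but not without either 4OHT array (adjusted p from 0.0454 to 0.0818 over the 4 fits), and Tmem176a lost it in each (0.0535 to 0.088).

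No other neighbour passed. Beyond the Tmem176 pair, Aoc1, a diamine oxidase gene, had a change of -0.19 and Doxl1 one of -0.0048. On the Gimap8 side Zfp775 was at -0.11, Repin1 at -0.06, Lrrc61 at 0.25, Atp6v0e2, a proton pump subunit gene, at 0.08 and Zfp862-ps at -0.18. Rarres2, which encodes the chemoattractant chemerin, was the neighbour closest to a call in the other direction (-0.40 ± 0.09, adjusted p = 0.0614); another of its probe sets, under the floor, moved by 0.37.

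**Figure D4:**
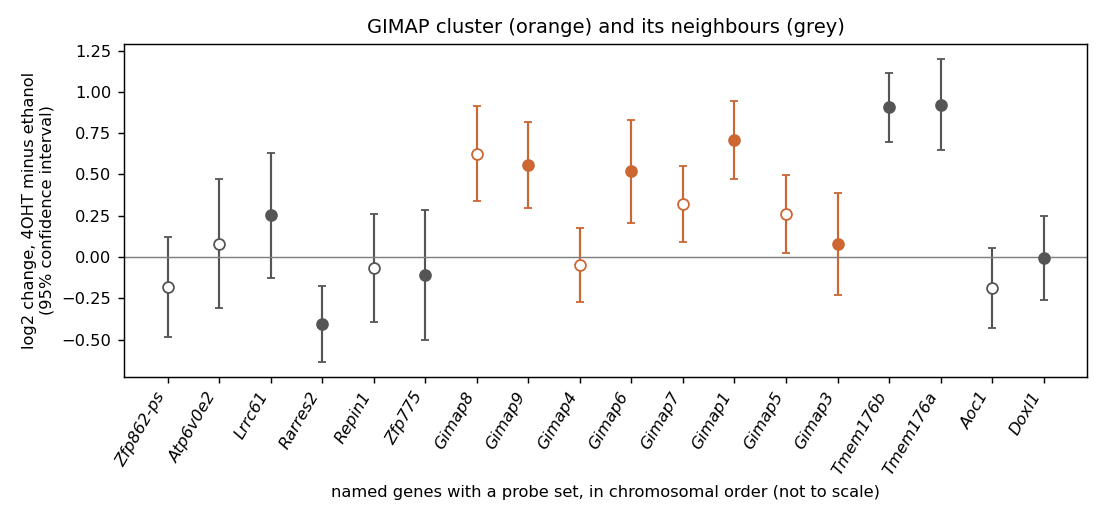
Log2 change, 4OHT minus ethanol, with 95% confidence intervals from limma, of the GIMAP genes (orange) and the neighbouring named genes with a probe set (grey) in chromosomal order, not to scale; open points were under the testing floor and come from the fit with no filter. Tmem176b and Tmem176a, at 0.91 and 0.92, stand beside Gimap3, at 0.08.

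Genes with a pattern like that of Gimap9, the member with the highest signal, were sought by the Euclidean distance over the 4 arrays after centring each gene on its own mean. The nearest 5 of 11580 other tested genes were Cdkn2d, a CDK inhibitor gene (distance 0.029), the probe set annotated as Mir1931, which is not a measure of the mature miRNA (0.033), Fam117a (0.037), Cflar, which encodes the caspase-8 regulator FLIP (0.040), and Slamf1, a lymphocyte adhesion receptor gene (0.042). Their log2 changes lay between 0.54 and 0.59. Gimap1 and Gimap6 were each at a distance of 0.28 from Gimap9, and 550 genes were nearer than Gimap1. The 4 arrays form 2 groups, so any gene with a rise of like size comes out near.

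All 8 genes of a Notch readout list were lower with 4OHT, among them Dtx1, a ubiquitin ligase gene (change -3.41), and Ptcra, the pre-T-cell receptor alpha gene (-2.23). As a baseline for this and the later lists, 3.9% of all 11581 tested genes were called higher and 3.57% lower. Before adjustment 12.3% were higher, and 1532 genes were lower. Among BCL2 family genes, which include reported GIMAP partners, 1 of 9 tested was higher and 0 lower (before adjustment 3 and 1), with a median change of 0.27. The riser was Bmf, a death-promoting BH3-only gene (1.01 ± 0.17 SE, adjusted p = 0.0333), though another of its probe sets above the floor had a change of -0.14. Bmf did not pass with the mean of its probe sets (0.55, adjusted p = 0.0882) or without _x_at and _s_at probe sets (0.78, adjusted p = 0.112), and of the 4 fits without 1 array it passed only in that without 4OHT replicate 2 (adjusted p from 0.047 to 0.106). The survival gene Mcl1 was at 0.27 (adjusted p = 0.185). Its other probe sets, all above the floor, were at 0.35 to 0.43, and the mean of its probe sets at 0.37 (limma adjusted p = 0.0543). Bid was at -0.48 (adjusted p = 0.0872). None of 8 GABARAP, LC3 and autophagy genes passed limma (at an unadjusted p under 0.05, 4 were higher and 0 lower), with changes from -0.18 to 0.35. Gabarapl2, named for its tie to Gimap6 and not by the rule, had the largest of these changes (0.35 ± 0.08 SE, adjusted p = 0.0718), and its dimmer probe set above the floor was at -0.0069.

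Other GTPase families were counted beside the GIMAP genes. Of 9 tested interferon-inducible immunity GTPases 2 were higher and 0 lower (before adjustment 5 and 0), with a median of 0.30. These were Mx1 (1.33, adjusted p = 0.0124) and Mx2 (0.58, adjusted p = 0.0292), both antiviral dynamin-like GTPases. Of 8 septins 1 was higher, Septin8 (0.62, adjusted p = 0.0265), and 0 lower (before adjustment 2 and 1), with a median of 0.07. None of 9 small GTPases of lymphocyte signalling passed limma (at an unadjusted p under 0.05, 2 were higher and 0 lower), and their median was 0.07. Of 9 naive lymphocyte survival and quiescence genes, 0 were higher and 1 was lower, Lef1, a TCF family factor gene (-0.73, adjusted p = 0.0268). Before adjustment 2 were higher and 1 lower, with a median of 0.18. Btg2 had the largest rise of this list without passing limma (0.91, adjusted p = 0.15). Btg1, an antiproliferative gene, was at 0.17 (adjusted p = 0.321). Differences between these lists and the GIMAP genes were not tested.

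T-cell markers were mostly bright: the 9 with a probe set had a median mean value of 11.6. Of these 9, 8 were above the floor, while Cd5 was under it. Of the 8, 5 were higher and 1 lower before adjustment (limma p under 0.05), with a median change of 0.35. After adjustment Cd8a and Cd247 were higher and Cd3g lower (0.83, 0.68 and -0.57). With the mean of probe sets Cd8a (0.62, adjusted p = 0.123) and Cd247 (0.44, adjusted p = 0.0605) did not pass, and none of the 3 passed when 1 array was left out. Since GIMAP genes are also expressed in other lymphocytes and in endothelial cells, markers of those cells were read too. Under the floor were 3 of 6 B-cell, 3 of 5 NK and cytotoxic, 5 of 7 myeloid and 4 of 7 stromal, epithelial and endothelial markers, and 1 gene each of the B-cell (Ighm, 0.58, with other probe sets above the floor at 0.58 and -0.12), NK (Gzma, 1.09) and stromal and endothelial lists (Pecam1, 0.93) rose. Mean values over the 4 arrays were 11.5 for Ighm, 13.2 for Gzma and 8.18 for Pecam1, all above the floor. The other tested genes of the B-cell, NK and stromal lists had changes below 0. These were Pax5 (-0.10), Cd22 (-0.22), Prf1 (-0.08), Pdgfrb (-0.29) and Epcam (-0.23). The tested myeloid markers were Cd14 (-0.37) and Csf1r (0.07). None of these passed limma, though Cd14 and Epcam were lower at an unadjusted limma p under 0.05. With no filter the myeloid marker Itgam was also called higher (0.77, adjusted p = 0.0165). Itgam is named because its value was seen. The endothelial marker Cdh5, which was not named by the rule, was under the floor at 3.99 and 3.95 in the group means. Pdgfrb and Epcam of the same list were above the floor, and Pdgfrb had a higher mean value than Pecam1. The mean level over the whole list was 5.50 and 5.63 with ethanol and 5.60 and 5.58 with 4OHT for B-cell markers, 5.55 and 5.59 against 5.81 and 5.57 for NK markers, and 5.29 and 5.27 against 5.24 and 5.38 for the stromal and endothelial list, and 4.76 and 4.75 against 4.84 and 4.78 for myeloid markers. The 3′ minus 5′ difference of the 18S RNA control also differed by group: it was 0.05 and 0.32 on the ethanol arrays but 0.90 and 0.82 on the 4OHT arrays, while that of Actb did not (0.40 and 0.49 against 0.43 and 0.45). The part of these in the GIMAP values was not tested, and in bulk RNA more expressing cells and more RNA per cell cannot be told apart.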

How the data were processed

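Biotin-labelled cRNA from 4 samples was read on Affymetrix arrays. The deposited log2 values were summarised per probe set by the authors using RMA, according to the submitters' processing notes; neither a version nor later filters are given there. The log2 scale follows from their range (2.25 to 14.6). Detection calls are not part of RMA, and the number of arrays limits the precision. Of 45101 probe sets, 34945 named 1 gene, 932 several and 9224 were controls or unnamed here.

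Each of 18193 genes was represented by its brightest probe set. The 4OHT and ethanol arrays were set against each other in R 4.3.3 using limma 3.58.1 (lmFit, eBayes, 2 residual degrees of freedom, Benjamini-Hochberg over all genes or probe sets tested), which was also tested on simulated data. Named were all members, every neighbour among 6 named genes on each side, the 5 nearest genes to the brightest member, and up to 3 genes of each list. Septin symbols and other older names were updated through a RefSeq table of GRCm38.p6. The members and lists were chosen with earlier results of these data known. Alternatives were dropping the filter or raising it to the 60th percentile, median centring, quantile normalization, a replicate block, leaving out each array, averaging all probe sets of a gene, no _x_at or _s_at probe sets, and an intensity trend.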

Additional observations from a re-analysis of the deposited data

How the results depend on the processing

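In the fits with 1 value per gene, Gimap1 and Gimap9 kept their direction under every alternative run and their call under all but leaving out 1 array, where 0 GIMAP genes were called in each of the 4 fits. The counts over all genes then ran from 9 to 125 higher and 12 to 66 lower, and over all probe sets from 0 to 14 higher and 0 to 11 lower, with 0 GIMAP probe sets; such fits have 1 residual degree of freedom. The fit with the replicate block also had 1 residual degree of freedom. In it 1104 genes were higher and 1031 lower, and 1629 probe sets higher and 1202 lower. It called 3 GIMAP genes and 3 GIMAP probe sets higher, and Gimap6 then passed (adjusted p = 0.016). The labels give the same numbers to both groups without saying what they share, and deviations of same-numbered samples correlated at r = 0.34 across genes, a single value with 2 pairs, so the block was not used as the main fit. With an intensity trend 663 genes were higher and 636 lower, and 909 probe sets higher and 778 lower, with 2 GIMAP probe sets higher. The block and the trend change the variance estimate; why counts rose was not tested.

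Changes near 0 turned sign. Leaving out 1 array gave -0.040 to 0.19 for Gimap3, -0.15 to 0.31 for Atp6v0e2, -0.10 to 0.094 for Doxl1, -0.24 to 0.12 for Repin1 and -0.33 to 0.11 for Zfp775, and the mean of its probe sets gave 0.013 for Gimap4. Of 87 alternative values for the 8 GIMAP genes, 71 kept direction and side of the threshold, 12 lost a call, 1 gained one and 3 turned sign. Quantile normalization brought Rarres2 past the threshold (-0.47, adjusted p = 0.0424), as did blocking on the replicate number (-0.40, adjusted p = 0.0234). Gabarapl2 passed with a floor at the 60th percentile (adjusted p = 0.0467), an intensity trend (adjusted p = 0.0336) and blocking on replicate number (adjusted p = 0.0356). Of 356 alternative values for 31 other named genes, 274 kept direction and side, 72 lost a call, 5 gained one and 5 turned sign. Most lost calls came from leaving out 1 array; beyond those, Bmf, Cd8a, Cd247, Ighm and Slamf1 lost theirs with the mean of probe sets, Bmf without _x_at and _s_at probe sets, Slamf1 with quantile normalization and Fam117a with no filter.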
